A study of Rattus norvegicus with 24 samples.

Results

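The first day of perchlorate exposure on a normal diet was examined in the rat thyroid, as the comparison of 3 perchlorate arrays (replicates 15, 16 and 18) with 3 control arrays of the same day (replicates 21, 22 and 24), which make up 6 of the 24 arrays of the study. The 6 arrays were chosen by the group letter in the sample titles. Animals were adult male Sprague-Dawley rats kept for 2 months and 1 day. Controls received normal food and water, and the exposed rats received the same food with 95 mg of potassium perchlorate per liter of drinking water for 1 day. Arrays of 2 further pairs of groups were used for comparison, with 3 arrays in each group. The first was perchlorate for 14 days on normal diet with its own controls. The second was perchlorate for 1 day on an iodine-deficient diet with the diet alone (on the diet for 2 months and 1 day). The remaining 2 groups, the deficient diet at day 14 without and with perchlorate (3 arrays each), enter levels over all 24 arrays and the shared estimate of spread. Day 14 groups have the same 2 months of feeding, with day 14 in place of day 1. The labels do not state whether the 3 arrays of a group are 3 animals, and p-values here reflect no more than the spread among these arrays, some of which may be technical. Each array measures transcripts with probe sets, groups of short probes for a transcript. Levels given here are log2(intensity + 16) after quantile normalization. The summed intensities of cell type markers are the exception: they add the deposited linear values without normalization. Differences in scale between arrays (trimmed means of 320.4 to 487.6) therefore remain in those sums.

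Thyroid follicular cells take up iodide through the sodium iodide symporter, encoded by Slc5a5, and attach it to thyroglobulin (Tg) at the apical membrane with hydrogen peroxide made by dual oxidase. Perchlorate is carried or bound by the symporter in place of iodide and blocks uptake. When hormone output falls, pituitary thyrotropin (TSH) rises and acts through its receptor and cyclic AMP on the genes of uptake, synthesis and growth. The comparison addresses which transcripts differ after the first day of exposure.

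The tissue label was checked against follicular markers. In the 6 arrays Tg stood at 13.57 to 13.97, Pax8 at 12.45 to 12.91, Foxe1 at 12.99 to 13.57, Nkx2-1 at 11.01 to 11.39 and Tshr at 9.27 to 10.34, and none of these markers was absent (Tshr and Nkx2-1 were named here after their values were seen). Perchlorate replicate 18 stood apart: its median absolute deviation from the other arrays over all genes was 0.692. The remaining 23 arrays had values of 0.121 to 0.277, the highest of them control replicate 22. Replicate 18 correlated with its group at 0.851 to 0.88. Leaving out replicate 18 moved the day 1 fold change of 26 of 83 named genes by over 1.5 times or turned its sign, and the value without it is given beside each of these fold changes that is printed.

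Markers of other cell types also differed between the 6 arrays. Of 14 T lymphocyte markers, 6 were measured, and their summed intensity was 9716 in perchlorate replicate 15, 538 in replicate 16 and 3652 in replicate 18, against 499 to 983 in the controls and 530 to 4433 in the other 18 arrays. Zap70, a kinase of T-cell receptor signalling, read 9.15, 6.57 and 8.65 in perchlorate replicates 15, 16 and 18 and 5.70, 6.68 and 6.09 in control replicates 21, 22 and 24. Cd3d, a T-cell receptor subunit, showed the same order, with a wider difference (log2 3.05, SE 0.97, limma adjusted p = 0.43). So the T-cell signal was carried by replicates 15 and 18, more by replicate 15, and was at the control level in replicate 16. Satb1, a chromatin organiser abundant in thymocytes, read 12.15 in replicate 15 and 8.85 to 9.27 in the other 5 arrays. Summed C cell markers (12 of 15 measured) were 52088 in replicate 15 and 28105 to 34209 in the other 5. Skeletal muscle markers (17 of 22 measured) summed to 6935, 8654 and 13626 in the perchlorate arrays. They summed to 26189, 21548 and 8710 in control replicates 21, 22 and 24, so these ranges overlapped. In the other 18 arrays they summed to 5127 to 46814. On the normalized scale the muscle markers were mostly lower under perchlorate, with a median log2 fold change of -1.80, or -2.73 without replicate 18. Of the 17, 3 had a positive fold change, and 0 were called or separated the groups. Adipocyte markers (12 of 15) summed to 5307, 17279 and 14441 under perchlorate and to 5671, 29182 and 15879 in control replicates 21, 22 and 24. The other 18 arrays had adipocyte sums of 2725 to 11909, below the higher values of both groups. In whole tissue, fewer cells of a type and less RNA per cell cannot be told apart. The part of these cells in the differences below was not tested beyond leaving out each array.

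**Figure D1:**
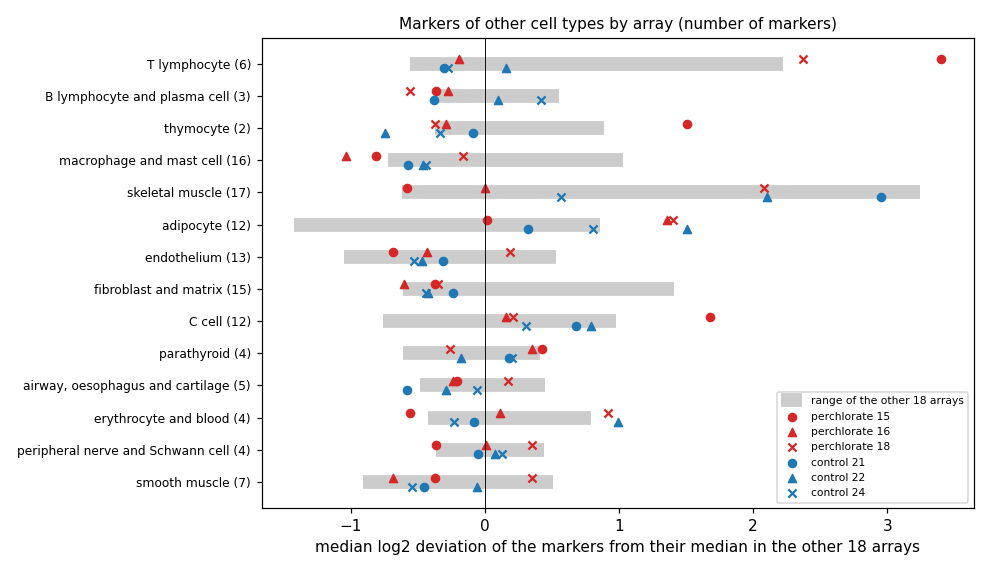
Median deviation (log2) of the markers of 14 cell types in each of the 6 arrays from their median in the other 18 arrays; grey bars span the other 18 arrays, and the number of markers measured is in parentheses. T lymphocyte markers stand far to the right in perchlorate replicates 15 and 18 and near 0 in replicate 16.

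No transcript passed the test after 1 day of perchlorate. With limma, 0 of 18625 probe sets (0%) were called at an adjusted p under 0.05, and without perchlorate replicate 18 also 0 (0%), while 1888 (10.1%) had an unadjusted p under 0.05, or 1428 without replicate 18. The lowest adjusted p was 0.156, shared by Slc5a5, Slc26a10 and Gpc4. Of 10643 genes, each represented by its brightest probe set, 338 (3.18%) were higher in all 3 perchlorate arrays than in every control array and 400 (3.76%) were lower. The median log2 fold change over these genes was 0.03, and -0.02 without replicate 18. The descriptions that follow are of levels and of separation between the 6 arrays, and not of called changes, unless a test is given.

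Slc5a5, the target of perchlorate, had the smallest p of all probe sets. Its level was 11.51, 11.98 and 12.19 in perchlorate replicates 15, 16 and 18 and 10.66, 10.70 and 11.09 in control replicates 22, 21 and 24. All 3 perchlorate arrays were above all 3 controls. The means were 11.89 ± 0.35 and 10.82 ± 0.24 (SD, n = 3 each), a 2.11-fold difference (log2 1.07, SE 0.19), which did not pass correction over all probe sets (limma adjusted p = 0.156). It was 0.92 without replicate 18 (adjusted p = 0.282). It was called when replicate 15 was left out (1.27, adjusted p = 0.0144) or replicate 16 (1.03, adjusted p = 0.038). Over the alternatives the limma adjusted p of Slc5a5 ran from 0.0144 to 0.997. The highest value was from the fit of only the groups compared. The promoter of Slc5a5 is shown because this gene leads the comparison: the 250 bases before its start in RefSeq (assembly GRCr8, chr16:18580455-18580704, plus strand), with the GC box GGGCGG, a binding motif of Sp1-type factors, in capitals.
Slc5a5: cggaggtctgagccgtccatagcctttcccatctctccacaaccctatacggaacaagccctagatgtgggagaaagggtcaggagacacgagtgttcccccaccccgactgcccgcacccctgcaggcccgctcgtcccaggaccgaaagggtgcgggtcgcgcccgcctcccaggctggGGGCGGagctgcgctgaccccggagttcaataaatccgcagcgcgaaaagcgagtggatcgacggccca
The GC box begins 69 bases before the start, and 30.5% of 33469 rat promoters of this length hold it on either strand, so it is common. The cyclic AMP response element TGACGTCA, its shorter form TGACG and the CArG box were not found in this window.

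Across the study, Slc5a5 was lowest in both control groups. It averaged 10.95 ± 0.30 in the day 14 controls, 11.96 ± 0.24 and 12.04 ± 0.27 on the deficient diet at days 14 and 1, 12.01 ± 0.07 on diet with perchlorate at day 1, 12.46 ± 0.17 after 14 days of perchlorate and 12.65 ± 0.17 on diet with perchlorate at day 14 (SD, n = 3 each). The day 1 perchlorate arrays thus overlapped those of the deficient diet and lay above every control of either day. On normal diet at day 14 the perchlorate effect was 1.52 (SE 0.19) and was called (limma adjusted p = 8e-05). The difference between the day 14 and day 1 effects was 0.44 and was not called (limma adjusted p = 0.52). On the deficient diet 1 day of perchlorate gave -0.02 (SE 0.19). The difference from the effect on normal diet was -1.10 and was not called (limma adjusted p = 0.33).

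**Figure D2:**
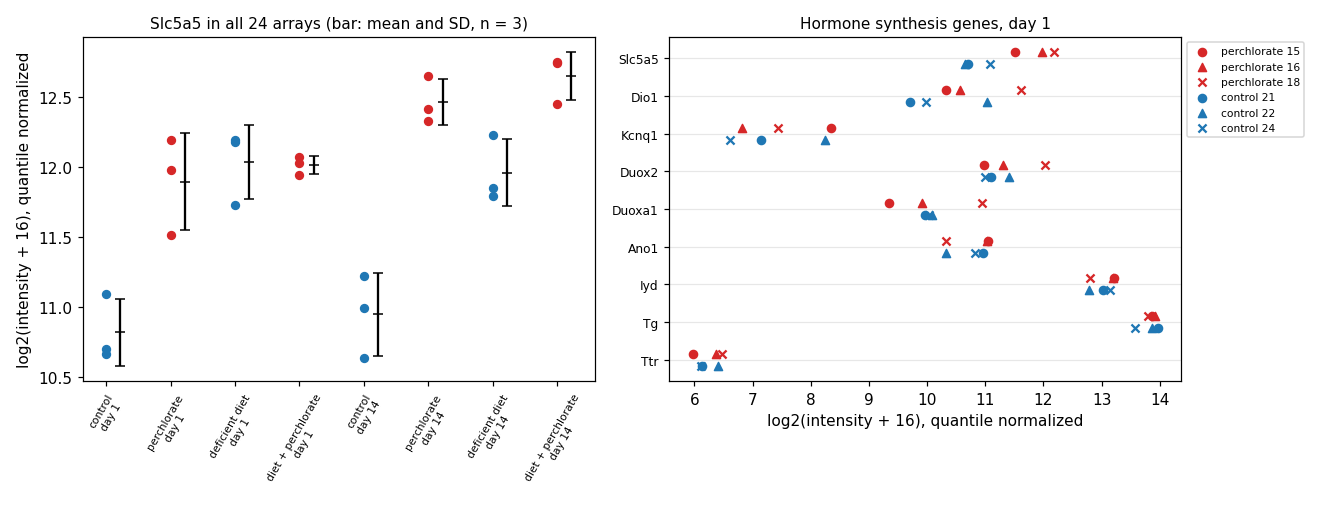
Left: Slc5a5 level (log2) in all 24 arrays by group, with mean and SD (n = 3). Right: the 9 measured genes of hormone synthesis and iodide handling in the 6 arrays of day 1. Only Slc5a5 separates the red perchlorate arrays from the blue controls, with a mean of 11.89 against 10.82.

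The other genes of hormone synthesis and iodide handling did not separate. Of 18 genes listed, 9 were measured, 0 were called and 1 (Slc5a5) separated the groups, upward, beside 3.18% of all genes. The median log2 fold change of the list was 0.09, or 0.21 without replicate 18, against 0.03 over all genes. Tg, the scaffold on which hormone is made, differed by 0.05 (SE 0.10), or 0.09 without replicate 18. Duox2, the peroxide-making oxidase, differed by 0.27 (SE 0.22) with all arrays and by -0.03 without replicate 18. Its maturation factor Duoxa1 differed by 0.04 (SE 0.26) and by -0.40 without replicate 18, where replicate 18 read 10.94 and replicates 15 and 16 read 9.34 and 9.92. Iyd, which recovers iodide from iodotyrosines, differed by 0.08 (SE 0.12), and the hormone carrier Ttr by 0.06 (SE 0.24). Without replicate 18 these were 0.22 and -0.04. Among channels, Ano1 differed by 0.09 (SE 0.21), or 0.33 without replicate 18, and Kcnq1 by 0.20 (SE 0.40). The deiodinase Dio1 had the second largest difference of the list, 0.60 (SE 0.46), with overlapping groups: 10.33, 10.57 and 11.62 under perchlorate against 11.03, 9.71 and 9.98 in control replicates 22, 21 and 24. Without replicate 18 the Dio1 difference was 0.21. Of the 8 besides Slc5a5, Tg, Iyd, Duox2, Duoxa1, Ano1, Kcnq1 and Ttr changed sign when some array or setting was changed. The TSH receptor pathway list (20 of 22 measured, 0 called) had a median of -0.02. In it the adenylyl cyclase Adcy9 alone separated the groups, lower by 0.56 under perchlorate (SE 0.25), beside 3.76% of all genes that separated downward. Of 14 follicular identity genes, Pax8, a transcription factor, alone separated, upward by 0.25 (SE 0.11), beside 3.18% of all genes. Foxe1 differed by 0.23 (SE 0.14), or 0.09 without replicate 18. Folr1, a folate receptor, differed by 0.65 (SE 0.28), with groups that overlapped, and fell at day 14 by 1.02 (limma adjusted p = 0.0446).

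Among the 12 genes whose perchlorate arrays stood farthest above the controls, Slc26a10, of a family of anion transporters, had the same adjusted p as Slc5a5. It read 8.74, 8.86 and 9.33 under perchlorate and 7.88, 7.80 and 8.11 in control replicates 21, 22 and 24, a 2.07-fold difference (log2 1.05, SE 0.20, limma adjusted p = 0.156). Without replicate 18 it was 0.87 (adjusted p = 0.282), and without replicate 16 it was called (1.11, adjusted p = 0.035). Over the alternatives its limma adjusted p ran from 0.035 to 0.997. At day 14 it was 0.79 and called (limma adjusted p = 0.0241). Mt3, a metallothionein that binds zinc and copper, read 12.51, 12.66 and 13.13 against 11.95, 11.78 and 12.01 (log2 0.85, SE 0.19). Rap1gap2, an inactivator of the small GTPase Rap1, read 9.76, 10.12 and 9.90 against 8.53, 9.31 and 8.03 (log2 1.30, SE 0.29). For both genes every perchlorate array was above every control. Pck2, the mitochondrial form of phosphoenolpyruvate carboxykinase, was higher by 0.92 (SE 0.23), and Agr2, a disulfide isomerase of the endoplasmic reticulum, by 1.14 (SE 0.30). Dpep2, a dipeptidase, was higher by 1.21, Maip1 by 0.93 and Hfe, a regulator of iron uptake, by 0.69. For Pck2, and for RT1-CE5 below, the gene's other probe set did not share the sign (-0.00 and -1.11).

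Among the 12 farthest below the controls, Gpc4, a glypican of the cell surface, read 10.54, 10.67 and 10.31 under perchlorate and 11.37, 11.25 and 11.63 in control replicates 21, 22 and 24. The groups did not overlap and the difference was -0.91 (SE 0.17, limma adjusted p = 0.156), or -0.81 without replicate 18 (adjusted p = 0.282). It was called without replicate 16 (-0.99, adjusted p = 0.0275). Over the alternatives the limma adjusted p of Gpc4 ran from 0.0275 to 0.997. Slco1a4, a carrier of organic anions that include thyroid hormone, read 8.32, 8.58 and 8.08 against 9.0, 9.50 and 9.40 (log2 -0.98, SE 0.20). It was -0.85 without replicate 18 (adjusted p = 0.37) and was called without replicate 16 (-1.10, adjusted p = 0.0373). Esm1, a proteoglycan secreted by endothelium, read 9.71, 9.58 and 8.97 against 11.23, 10.65 and 10.16 (log2 -1.26, SE 0.37). Every perchlorate array was below every control for both genes. Cpa3, a protease of mast cells, was lower by 0.89 (SE 0.47, limma adjusted p = 0.517). Csf1r, a receptor of macrophages that is not among these 12, also separated, lower by 0.38 (SE 0.22, limma adjusted p = 0.543). Both are in the list of macrophage and mast cell markers. Of its 16 measured members, 6 had a positive fold change, 2 separated downward beside 3.76% of all genes, and the median was -0.14. Chodl was lower by 1.0 (SE 0.28), Ifih1, a sensor of double-stranded RNA, by 0.90, Reep1, which shapes the endoplasmic reticulum, by 1.02, and Fhl1, a LIM protein abundant in muscle, by 0.84. Nxpe1 was lower by 1.20, Pkhd1l1 by 0.72 and the membrane protein Tmem213 by 1.52. Tmem213 read 5.31, 5.66 and 5.67 against 6.08, 6.19 and 8.94, so its size rested on control replicate 24, without which it was -0.58.

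**Figure D3:**
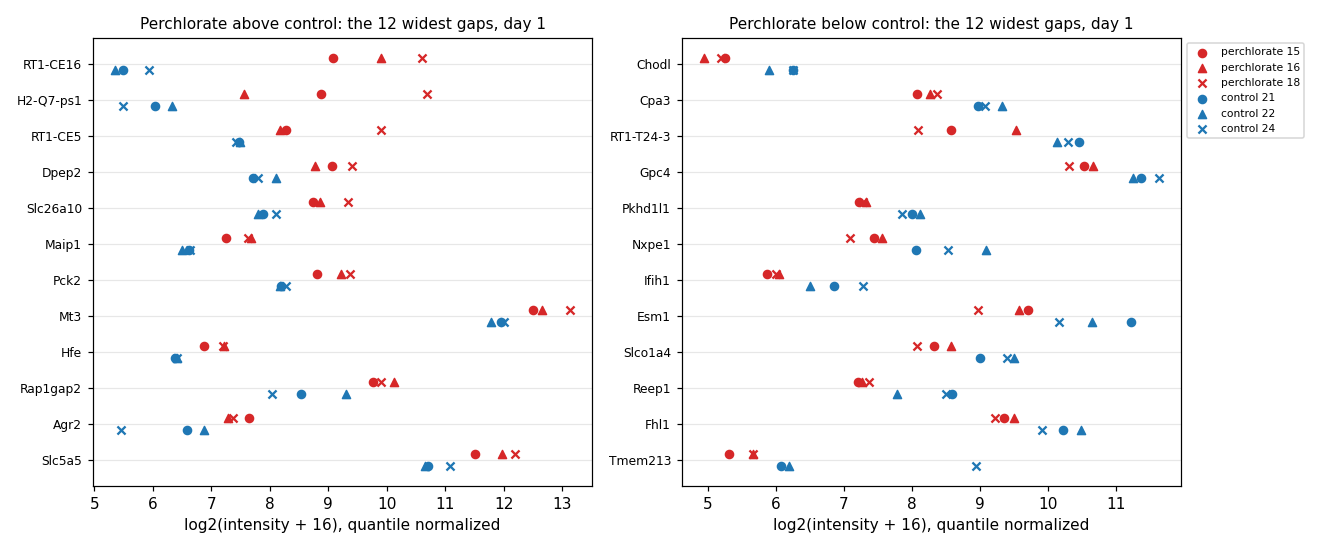
Levels (log2) in the 6 arrays of the 12 genes with the widest gap above (left) and below (right) the controls; red is perchlorate, blue is control and each symbol is 1 array. Slc5a5, at the foot of the left panel, spans 11.51 to 12.19 under perchlorate and 10.66 to 11.09 in the controls.

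The widest gaps belonged to genes of the major histocompatibility complex (RT1 in the rat), whose products present peptides to T cells. RT1-CE16 read 9.08, 9.91 and 10.60 under perchlorate and 5.48, 5.36 and 5.93 in control replicates 21, 22 and 24 (log2 4.28, SE 1.16, limma adjusted p = 0.423). It was the 1 probe set called when the fit held only the groups compared (adjusted p = 0.0349). H2-Q7-ps1 read 8.88, 7.56 and 10.69 against 6.04, 6.32 and 5.49, and RT1-CE5 read 8.27, 8.18 and 9.90 against 7.48, 7.49 and 7.43 (log2 1.32, or 0.76 without replicate 18). RT1-T24-3 ran the other way, at 8.58, 9.54 and 8.09 against 10.46, 10.13 and 10.30 (log2 -1.56, SE 0.35). It was -1.24 without replicate 18 (adjusted p = 0.502) and was called without replicate 16 (-1.96, adjusted p = 0.0224). Of 18 RT1 genes measured, 4 separated upward and 5 downward, beside 3.18% and 3.76% of all genes. RT1-CE16 was not high in the perchlorate arrays of day 1 alone. Over the 24 arrays it was at 8.87 to 10.60 in 8 and at 5.18 to 5.93 in 16, and these 8 were the 3 perchlorate arrays of day 1, 1 of diet with perchlorate at day 1, 2 of diet with perchlorate at day 14, 1 of perchlorate at day 14 and 1 day 14 control (replicate 43). H2-Q7-ps1 and a probe set of RT1-Bb were above a level of 7 in the same 8 arrays (both the level and RT1-Bb were chosen after the values were seen). A second RT1-Bb probe set read 4.80, 7.38 and 6.03 under perchlorate and 8.69, 8.53 and 7.75 in the controls, opposite to the first. RT1 genes include near-identical copies whose signals an array can split or mix, so these values are uncertain, and the cause of the split among the 24 arrays was not tested.

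**Figure D4:**
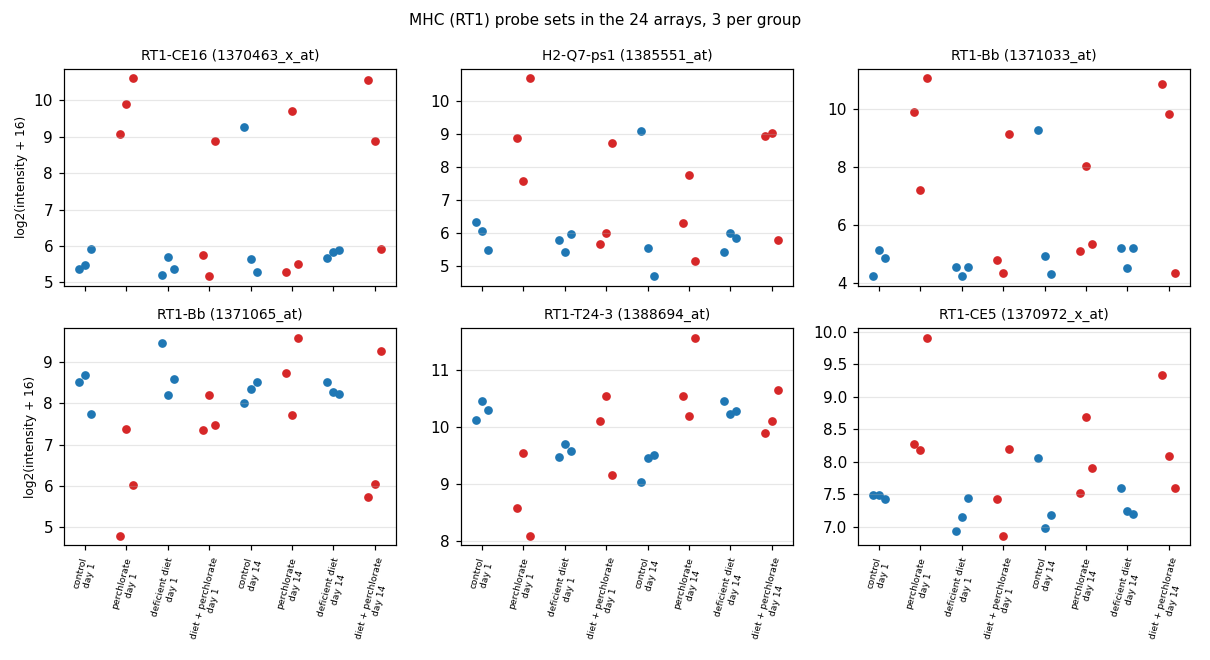
Levels (log2) of 6 probe sets of the major histocompatibility complex in the 24 arrays, 3 per group; red marks groups given perchlorate. RT1-CE16 lies either at 8.87 or more or at 5.93 or less, and a day 14 control is among the 8 high arrays.

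Immediate early genes, whose transcripts appear within minutes of a stimulus, were the list with the most members separated upward. Of 31 genes, 23 were measured, 0 were called, 16 had a positive fold change and 5 separated upward (Fos, Egr1, Egr2, Ier2 and Dusp2), beside 3.18% of all genes. The list's median was 0.37 with all arrays, 0.19 without replicate 18, 0.38 without replicate 15 and 0.32 in the day 14 comparison, where 3 members were called, beside 3.57% of all probe sets. Egr2, a zinc finger transcription factor, read 8.01, 7.37 and 8.40 under perchlorate and 6.57, 6.88 and 6.98 in control replicates 21, 22 and 24 (log2 1.12, SE 0.26, limma adjusted p = 0.284). It was called without replicate 16 (1.40, adjusted p = 0.0259), and was 0.89 without replicate 18 (adjusted p = 0.502) and 0.64 with array weights (adjusted p = 0.433). Dusp2, a phosphatase of MAP kinases, read 9.15, 8.16 and 9.13 against 7.64, 7.87 and 7.66 (log2 1.09, SE 0.38). Ier2 read 10.91, 11.12 and 11.59 against 10.40, 10.86 and 10.55 (log2 0.60, SE 0.21). For Egr2 and Dusp2 replicate 16 was the lowest perchlorate array, as it was for Zap70 and the summed T-cell markers, and the part of T cells in these levels was not tested. Egr1 differed by 0.66 and Fos by 0.52 (both named after their values were seen). Klf6, by contrast, was at -0.55, or -0.23 without replicate 18, with overlapping groups.

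Promoters of 2 of these genes, chosen after the motif search, are shown because each holds a motif through which serum or cyclic AMP acts on such genes: the 250 bases before the start in RefSeq (GRCr8), with the CArG box, bound by serum response factor, in capitals for Egr2 (chr20:21054442-21054691, minus strand) and the cyclic AMP response element TGACGTCA in capitals for Ier2 (chr19:40399123-40399372, plus strand).
Egr2: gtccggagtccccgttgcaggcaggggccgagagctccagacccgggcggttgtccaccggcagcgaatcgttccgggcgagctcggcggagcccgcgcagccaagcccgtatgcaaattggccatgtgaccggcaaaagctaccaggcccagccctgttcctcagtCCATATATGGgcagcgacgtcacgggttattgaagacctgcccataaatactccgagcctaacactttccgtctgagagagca
Ier2: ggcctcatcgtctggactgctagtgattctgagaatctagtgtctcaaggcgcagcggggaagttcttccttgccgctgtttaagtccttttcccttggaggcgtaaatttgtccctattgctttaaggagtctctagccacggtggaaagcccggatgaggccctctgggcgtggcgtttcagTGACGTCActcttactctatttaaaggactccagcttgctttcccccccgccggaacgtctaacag
The Egr2 box begins 83 bases before the start and the Ier2 element 66 bases. Of all 33469 promoters of this length, 1.5% hold a CArG box and 1.59% the TGACGTCA element on either strand. The shorter form TGACG, which also lies inside the longer element, is held by 18.2% and occurs in the windows of Egr1, Egr2, Ier2 and Dusp2, and Egr1 holds 2 CArG boxes. These are matches of letters and not sites shown to be bound.

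Targets of NRF2, the transcription factor of the response to oxidants, were mostly lower. Of 29 genes, 20 were measured, 0 were called, 4 had a positive fold change and 5 separated downward (Nqo1, Gclc, Gclm, Abcc4 and Aldh1a1), beside 3.76% of all genes. The median was -0.26, -0.23 without replicate 18 and -0.03 without replicate 15, and -0.39 at day 14. Nqo1, a quinone reductase, read 9.72, 9.84 and 10.65 under perchlorate and 10.87, 11.52 and 11.10 in control replicates 21, 22 and 24 (log2 -1.09, SE 0.29, limma adjusted p = 0.423). All perchlorate arrays were below all controls, and the difference was -1.38 without replicate 18. Gclc and Gclm, the subunits of the enzyme that starts glutathione synthesis, differed by -0.77 (SE 0.22) and -0.30 (SE 0.13), and Gclc by -0.48 without replicate 18 (adjusted p = 0.597). The efflux pump Abcc4 differed by -0.75 (SE 0.19). It was called without replicate 16 (-0.95, adjusted p = 0.038) and was -0.49 without replicate 18 (adjusted p = 0.556). Aldh1a1, a retinaldehyde dehydrogenase named after its values were seen, was lower by 0.66. At day 14, on other arrays, Nqo1 (-1.48), Gclc (-1.14) and Abcc4 (-0.70) were the 3 members called (limma adjusted p = 0.00506, 0.00421 and 0.0444), beside 3.57% of all probe sets.

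Of 20 circadian clock genes, 17 were measured and 4 separated: Cry2 (0.52) and Npas2 (0.31) upward, Per2 (-0.97) and Per3 (-0.55) downward. Over all genes 3.18% separated upward and 3.76% downward, the shares to set beside this count and those that follow. Without replicate 18, Cry2 was at 0.32 and Npas2 at 0.19. Per2, a repressor of the clock, read 8.02, 7.67 and 8.22 under perchlorate and 8.48, 9.41 and 8.92 in the controls. Nfil3 (1.04) and Nr1d2 (-0.60) overlapped between groups, and for both the outlying value was that of replicate 18, without which they were at 0.51 and -0.13. The labels give no time of day for the sampling. Among genes of protein folding (32 of 33 measured, median 0.04), Sdf2l1 (0.50, or 0.29 without replicate 18) and Hyou1 (0.51) separated upward. Sod3, which removes superoxide outside the cell, was higher by 0.61, or 0.27 without replicate 18. Klf9, a gene induced by thyroid hormone, was lower by 0.44, or 0.22 without replicate 18. In the cell cycle list (46 of 51 measured, 0 called), 37 members had a positive fold change and the median was 0.22, -0.08 without replicate 15 and 0.36 without replicate 18. Its separated members went both ways, Aurka upward (0.49) and Kif20a downward (-0.58, or -0.37 without replicate 18). Of 33 ribosome biogenesis genes measured, Wdr43 (-0.48) and Polr1b (-0.31) separated downward and the median was 0.01. The other Wdr43 probe set was at 0.15. Cd63 (0.18) and Laptm4a (0.15) separated upward among 23 genes of lysosomes and thyroglobulin processing. Of these genes Per3, Npas2, Aurka, Kif20a, Polr1b and Laptm4a were named after their values were seen. No member of the glycolysis (17 measured, median 0.03) or cholesterol synthesis list (14 measured, median 0.15) separated. The angiogenesis list had 18 members measured, 3 positive, Esm1 separated downward and a median of -0.22, against 0.63 at day 14 with 5 called, beside 3.57% of all probe sets.

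The calls that appeared when an array was left out were read by the genes they held. Without replicate 16, 55 probe sets were called, 30 higher and 25 lower. Those higher held the T-cell genes Zap70 (2.74), Lck (2.29), Cd3d (4.50), Cd3g (4.26) and Cd247 (3.19). They also held Coro1a (2.45), which is not in the T lymphocyte list. Coro1a and Cd3g were named after their values were seen. The 2 perchlorate arrays then left are those with the T-cell signal. Without replicate 15, 2 were called, Slc5a5 and a probe set with no symbol (-1.93). Weighting arrays by their quality gave perchlorate replicates 15, 16 and 18 weights of 0.445, 2.127 and 0.065. Control replicates 21, 22 and 24 had weights of 0.867, 0.266 and 2.141. The weighted comparison thus rested mostly on perchlorate replicate 16 and control replicate 24. It called 12 probe sets. Of these, 5 also separated the 6 arrays, among them Gpc4 (-0.89), Rap1gap2 (1.78) and Stag3 (0.65), and Kyat3 (-1.22) did not. Over all genes 3.18% separated upward and 3.76% downward. The calls use the same 6 arrays, so separation adds no independent evidence to them. Kyat3 was at -0.84 with all arrays at equal weight and at -1.49 without replicate 18. Stag3 and Kyat3 were named after their values were seen.

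The effect at day 1 was then compared with that at day 14, each against the control of its own day. At day 14, 665 of 18625 probe sets (3.57%) were called. The difference between the effects was called for 103 (0.553%), of which 91 had the day 14 effect above the day 1 effect and 12 below, and 89 were still called without replicate 18. For 92 of them the effects had opposite signs, 82 lower at day 1 and higher at day 14. All these differences use the day 1 arrays. Itih3, a protein that binds hyaluronan, read 7.01, 7.41 and 7.39 under perchlorate and 6.88, 6.96 and 7.19 in the controls at day 1 (log2 0.26, SE 0.28), and rose by 5.40 (SE 0.28) at day 14 (difference 5.14, limma adjusted p = 3.54e-07). Aspg, an asparaginase, went from 0.24 (0.49 without replicate 18) to 3.55 (difference 3.31, adjusted p = 0.00319). Mab21l3 separated already at day 1, at 8.55, 8.71 and 8.52 against 7.90, 7.74 and 8.41, by 0.58 (SE 0.20), and rose by 2.61 at day 14 (difference 2.03, adjusted p = 0.00205). C13h1orf116 was lower by 0.50 at day 1 and fell by 2.30 at day 14 (difference -1.80, adjusted p = 0.00491). Uroc1, the urocanase of histidine breakdown, was 1.49 at day 1 and 2.14 at day 14, and Tmem213 was -1.52 and -3.24. Neither of these differences was called (adjusted p = 0.741 and 0.44). Itih3, Aspg and C13h1orf116 were named after their values were seen. These genes, Lamb3 among them, are in a list of 16 taken from earlier results of the same data for day 14, which is not independent evidence. All 16 were measured, 9 had a called difference and their day 1 median was -0.06.

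Other genes had fold changes of opposite sign at day 1 and day 14, though none was called at day 1 with all arrays. For Mt3, Rap1gap2 and Gpc4 the day 14 effect was not called either (limma adjusted p = 0.286, 0.297 and 0.608). Mt3, Rap1gap2, Gpc4, Chodl and RT1-T24-3 were named for wide gaps in the day 1 arrays, which the difference also uses. The calls below are of the difference between the days. Lamb3, a laminin chain of basement membranes, read 7.13, 7.45 and 8.20 under perchlorate and 6.91, 6.67 and 6.92 in the controls at day 1 (log2 0.76, SE 0.26, or 0.46 without replicate 18) and fell by 1.43 at day 14 (difference -2.19, limma adjusted p = 0.0062). Pax1, named after its values were seen, went from 0.93 (0.61 without replicate 18) to -1.30 (difference -2.23, adjusted p = 0.0153). Mt3 went from 0.85 to -0.43 (adjusted p = 0.0339) and Rap1gap2 from 1.30 to -0.64 (adjusted p = 0.0322). Chodl went from -1.0 to 1.11 (adjusted p = 0.0177), Gpc4 from -0.91 to 0.25 (adjusted p = 0.0322) and RT1-T24-3 from -1.56 to 1.43 (adjusted p = 0.0062), the last with the uncertainty of RT1 genes. The control means also moved between the days, and these moves enter the differences. At day 1 and day 14 they were 6.83 and 7.42 for Lamb3, 6.03 and 7.01 for Pax1, and 11.91 and 12.3 for Mt3. They were 8.63 and 9.47 for Rap1gap2, 6.14 and 5.75 for Chodl, 11.42 and 11.1 for Gpc4, and 10.3 and 9.33 for RT1-T24-3. The part of the control moves was not tested. The call for Mt3 was lost on leaving out any day 1 control, day 14 control 43 or 44, or day 14 perchlorate replicate 39 or 42. That for Rap1gap2 was lost without day 1 perchlorate replicate 16, day 1 control 21 or 24, or day 14 arrays 43, 44, 39 or 42. For Gpc4 it was lost without day 1 control 21 or 24 or day 14 arrays 43, 44, 40 or 42, for Chodl without day 1 control 24 or day 14 control 47, and for Pax1 without day 14 perchlorate replicate 42. All 5 calls were lost in the fit of only the groups compared, those for Mt3, Gpc4 and Pax1 also without perchlorate replicate 18 and control replicate 22 together, those for Mt3 and Rap1gap2 with the values as deposited, and that for Mt3 with no filter on low signal. The adjusted p over the alternatives ran from 0.0114 to 0.123 for Mt3, 0.00244 to 0.118 for Rap1gap2, 0.0108 to 0.112 for Gpc4, 0.00391 to 0.0811 for Chodl and 0.00946 to 0.0682 for Pax1. Leaving out day 1 perchlorate replicate 18 alone did not end any of these 5 calls.

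**Figure D5:**
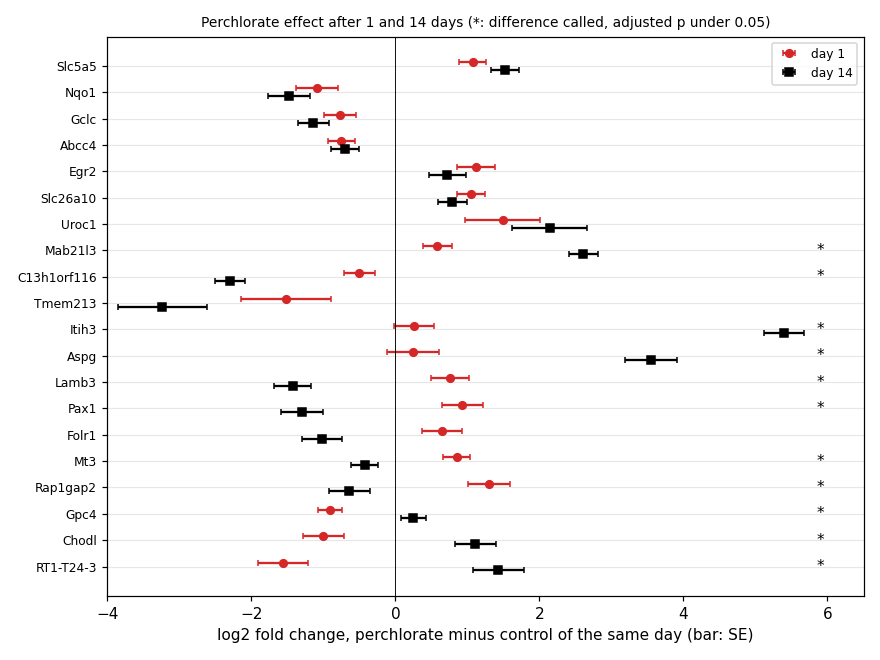
Log2 fold change of perchlorate over the control of the same day for 20 named genes, with SE, after 1 day (red circles) and 14 days (black squares); an asterisk marks a called difference between the days. Slc5a5 lies at 1.07 and 1.52 with no called difference, and Itih3 at 0.26 and 5.40.

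On the iodine-deficient diet, where Slc5a5 averaged 12.04 in the arrays of the diet alone at day 1, 1 day of perchlorate gave 1 called probe set of 18625 (0.00537%). The difference between the effects on the 2 diets was called for 2 probe sets (0.0107%). Gpc4 was -0.91 on normal and 0.56 on the deficient diet (difference 1.47, limma adjusted p = 0.0392). Mta1, part of a chromatin repressor complex and named after its values were seen, was 0.41 on normal diet and -1.57 on the deficient diet, where it was the probe set called (difference -1.97, adjusted p = 0.0274). Both calls held without replicate 18 (adjusted p = 0.0497 each) and both were lost on leaving out perchlorate replicate 15, any of the 3 day 1 controls on normal diet, diet control 8, or diet with perchlorate replicate 2 or 3. Both were also lost in the fit of only the groups compared, with no filter, with the values as deposited and without perchlorate replicate 18 and control replicate 22 together, and that for Mta1 with array weights. That for Gpc4 was also lost without diet control 12 or diet with perchlorate replicate 6. Over the alternatives the adjusted p ran from 0.0166 to 0.974 for Gpc4 and from 0.0197 to 0.974 for Mta1. Values on the deficient diet for the leading genes were -0.20 for Slc26a10, 1.03 for Rap1gap2, 0.12 for Egr2, -0.63 for Nqo1, -0.68 for Gclc and 0.12 for Abcc4.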

How the data were processed

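Total RNA from thyroids was hybridised to Affymetrix arrays. The deposited values are linear intensity per probe set, made by the authors in GCOS (per the submitters' processing notes). Its settings and scaling target are not given in the sources used here. Trimmed means (2% from each end) differed between columns, from 320.4 to 487.6. Values were taken as log2(intensity + 16), quantile normalized, and probe sets under the 40th percentile of mean signal were left out (18625 of 31042 stayed; 57 controls were removed). A fold change on this scale understates the change of dim probe sets. limma 3.58.1 in R 4.3.3 fitted 8 group means over 24 arrays (16 residual degrees of freedom, eBayes with trend, two-sided, Benjamini-Hochberg); a call is an adjusted p under 0.05, and every adjusted p is from this fit or its stated alternative. The fit was tested on simulated data. Of the probe sets, 20826 carried 1 symbol, 436 several and 9780 none. There are no detection calls, and 3 arrays per group limit the precision.

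The members, gene lists and tests were chosen with earlier results of these data known. Named genes are the 12 widest gaps in each direction between the 3 perchlorate and 3 control arrays, the measured genes of hormone synthesis, and up to 4 of smallest p of each of the other lists (30 lists, 566 genes, 443 measured); others are marked as chosen after their values were seen. Alternatives were the deposited values, a pseudocount of 1, no filter, a fit of only the groups compared, array weights, all probe sets of a gene averaged, and leaving out arrays.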

Additional observations from a re-analysis of the deposited data

Results flagged for a closer look

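The difference between the perchlorate effects at day 14 and at day 1 passed the test for 11 of 83 named genes, beside 103 of 18625 probe sets (0.553%). These genes were chosen from the same arrays, so the count is not independent evidence. Mt3, Rap1gap2, Gpc4, Chodl and RT1-T24-3 were named for wide gaps at day 1. Itih3, Aspg, Mab21l3, C13h1orf116 and Lamb3 are in the list of genes that moved at day 14, and Pax1 was named after its values were seen. For Mt3, Rap1gap2 and Gpc4 among them, the effect itself was not called on either day. The differences (log2, day 14 minus day 1) were 5.14 for Itih3, 3.31 for Aspg, 2.99 for RT1-T24-3, 2.12 for Chodl, 2.03 for Mab21l3, 1.16 for Gpc4, -1.29 for Mt3, -1.80 for C13h1orf116, -1.94 for Rap1gap2, -2.19 for Lamb3 and -2.23 for Pax1. Itih3, Aspg, Mab21l3, C13h1orf116, Lamb3 and RT1-T24-3 were called under each of the 19 alternatives run. The call for Mt3 held under 8 of 19, for Rap1gap2 under 10 of 19, for Gpc4 under 11 of 19, for Pax1 under 16 of 19 and for Chodl under 15 of 18. Between diets at day 1 (deficient minus normal), the effect differed by 1.47 for Gpc4 and by -1.97 for Mta1, and these calls held under 6 and 7 of 19 alternatives. Groups of 3 arrays are too small for a test of outlying samples.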

How the results depend on the processing

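No paired analysis was possible because the groups compared share no replicate numbers. For perchlorate at day 1 the number called was 0 with all arrays, 12 with array weights, 1 in a fit of only the groups compared, and 0 to 55 on leaving out 1 array. For the difference between days it was 103, and 511 with weights, 32 with only the groups compared, 63 with no filter, 66 without perchlorate replicate 18 and control replicate 22, and 30 to 317 on leaving out 1 array (highest without perchlorate replicate 15). For the difference between diets it was 2, and 5 with weights, 0 with only the groups compared, 0 with no filter, 0 with the deposited values, 0 without those 2 arrays and 0 to 5 on leaving out 1 array. At day 14 it was 665, and 1762 with weights, 1244 with only the groups compared, 1426 without those 2 arrays and 225 to 1196 on leaving out 1 array. For perchlorate on the deficient diet it was 1, and 70 with weights, 0 with only the groups compared, 62 without those 2 arrays and 0 to 38 on leaving out 1 array. Day 1 perchlorate replicate 18 and control replicate 22 are in neither of the last 2 comparisons, and the 1196 and the 38 were without replicate 18. These arrays enter them only through the normalization, filter and estimate of spread shared by all arrays. The part of each in these shifts, and the cause of the other shifts, was not tested.

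Of 83 named genes, 74 kept the sign of their day 1 fold change under each alternative run, and 18 of 1079 values turned. On leaving out 1 array, Tg ranged from -0.06 to 0.13, Iyd from -0.02 to 0.22, Duox2 from -0.03 to 0.50, Duoxa1 from -0.40 to 0.40, Ano1 from -0.09 to 0.33, Kcnq1 from -0.21 to 0.65, Ttr from -0.04 to 0.22, Tshr from -0.08 to 0.51 and Aspg from -0.16 to 0.56. Duoxa1 also turned with weights (-0.17), as deposited (-0.00) and without the 2 arrays (-0.37), and Ttr as deposited (-0.01). Slc5a5 ranged from 0.84 to 1.27, Slc26a10 from 0.81 to 1.17 and Gpc4 from -0.99 to -0.80 over the alternatives.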
